A study of Mus musculus with 12 samples.

Results

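The CXCR3 and CXCR6 chemokine axes were followed here as 6 genes: the CXCR3 ligands Cxcl9, Cxcl10 and Cxcl11, their receptor Cxcr3, the CXCR6 ligand Cxcl16 and its receptor Cxcr6. They were taken as the rows of the deposited count table whose Ensembl identifier carries 1 of these 6 symbols. All 6 were found, each as a single row among 55401 genes, and all 6 were among the 20818 genes that had enough counts to be tested.

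RNA came from 12 subcutaneous tumors of TC2Ras cells, a Ras-driven mouse prostate cancer (PCa) line. The tumors were collected 21 days after 125000 cells were implanted into the flanks. The 4 groups held 3 tumors each. Control tumors grew from TC2Ras cells alone in mice with 0 ppb inorganic arsenic (iAs) in drinking water, and As300 tumors from the same cells in mice drinking 300 ppb iAs. ASC tumors (0 ppb iAs) and ASC_As300 tumors (300 ppb iAs) grew from TC2Ras cells mixed with 1% ASC-GFP, primary adipose stromal cells isolated from male C57BL/6 mice that carry a GFP transgene under the ubiquitin C promoter. All mice had first been kept on low-arsenic chow and purified water, and the left and right flank tumors of a mouse were pooled before RNA extraction. The strain, sex and age of the host mice were not given in the sources used here. GEO's cell type label for every sample reads adipose-derived stromal cells, while the protocols describe excised tumors. The libraries held transcripts of all 10 T cell and all 8 macrophage marker genes examined, and they are treated here as whole tumors. They also held all 6 marker genes of fibroblasts and ASC, a list that cannot tell tumors from ASC.

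CXCR3 is carried mainly by activated T cells and NK cells, and its ligands are the classical chemokines induced by interferon gamma. CXCL9 depends most closely on interferon gamma, whereas CXCL10 also answers to type I interferon and to NF-kB. CXCL16 differs from the other ligands in being made as a membrane-anchored protein, largely by macrophages and dendritic cells, from which ADAM10 and ADAM17 release the soluble chemokine. Its receptor CXCR6 marks effector and tissue-resident T cells, NKT cells and some NK cells. In tumors both axes are known for bringing effector lymphocytes to myeloid cells that present antigen.

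Total counts ran from 39157647 to 55168642 per tumor. Control replicate 1 stood apart from the other 11 tumors. It lay at -101.8 on the first principal component, where the others lay between -22.6 and 64.9, and its summed B cell and lymph node markers reached 238 CPM (counts scaled to the size of each library), against 2.42 to 12.3 CPM elsewhere. Its summed T cell markers were 88.2 CPM, against 15.3 and 17.6 CPM in the other Control tumors, so receptor values are given below with and without it. Control replicate 2 and As300 replicate 1 carried 1368 and 1389 CPM of 4 skeletal muscle markers, against at most 272 CPM elsewhere.

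Cxcl9 was the member with the widest range, from 5.11 to 186 CPM. The gene lies on chromosome 5 (GRCm38, chr5:92321347-92328079, minus strand, 4 exon blocks). Control tumors held 26.5, 12.1 and 12.1 CPM, and As300 tumors 20.1, 5.11 and 18.3 CPM. ASC tumors held 173, 145 and 127 CPM, and ASC_As300 tumors 154, 186 and 178 CPM. Every tumor implanted with ASC was above every tumor without them, the nearest being ASC replicate 3 and Control replicate 1. Fitted with edgeR's quasi-likelihood test over all 12 tumors, Cxcl9 was 8.80-fold higher in ASC than in Control (log2 fold change 3.14 ± 0.43 SE, adjusted p = 0.00305). It was 10.2-fold higher in ASC_As300 than in Control (log2 fold change 3.36 ± 0.43 SE, edgeR adjusted p = 0.00195). In the mice given iAs it was 11.9-fold higher with ASC than without (log2 fold change 3.58 ± 0.44 SE, edgeR adjusted p = 0.00113).

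Cxcl10, the neighbor of Cxcl9 on the same strand (chr5:92346638-92348889), moved with it over a narrower range. Control tumors held 25.6, 24.1 and 20.7 CPM, and As300 tumors 21.3, 19.8 and 37.4 CPM. ASC tumors held 84.5, 107 and 98.2 CPM, and ASC_As300 tumors 75.3, 109 and 90.5 CPM. The groups with and without ASC did not overlap, and within the tumors without ASC only As300 replicate 3 stood above the rest. Cxcl10 was 4.11-fold higher in ASC than in Control (log2 fold change 2.04 ± 0.22 SE, edgeR adjusted p = 0.000628) and 3.90-fold higher in ASC_As300 (1.97 ± 0.22 SE on the log2 scale, edgeR adjusted p = 0.000732). ASC_As300 tumors were 3.50-fold above As300 tumors (log2 fold change 1.81 ± 0.22 SE, edgeR adjusted p = 0.00107). Calls for Cxcl9 and Cxcl10 held in every alternative fit of these 3 comparisons, Control replicate 1 left out included.

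**Figure D1:**
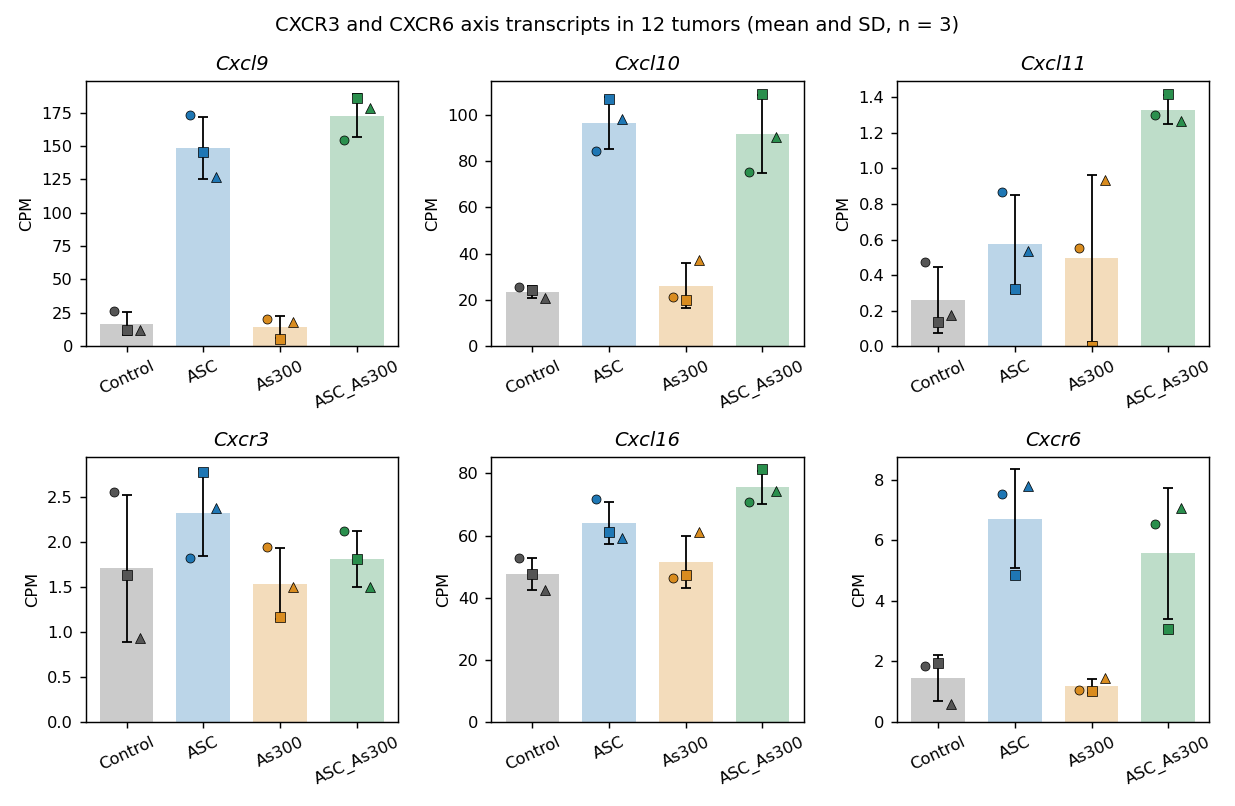
Each panel plots CPM (y axis) of 1 gene in the 4 groups, with circles, squares and triangles for replicates 1, 2 and 3, bars for the group mean and error bars for the SD (n = 3). Cxcl9, Cxcl10 and Cxcr6 separated the tumors with ASC from those without, Cxcr3 overlapped in all 4 groups, and Cxcl16 spanned 42.3 to 81.3 CPM.

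The starts of Cxcl9 and Cxcl10, the members that rose together, are shown for the sequence just upstream (RefSeq, GRCm38.p6, both on the minus strand and written 5′ to 3′ toward the gene). Capitals mark matches on either strand to those of the searched motifs that are reported here, an interferon regulatory factor (IRF) core GAAANNGAA and the NF-kB motif.
Cxcl9, chr5:92328080-92328329: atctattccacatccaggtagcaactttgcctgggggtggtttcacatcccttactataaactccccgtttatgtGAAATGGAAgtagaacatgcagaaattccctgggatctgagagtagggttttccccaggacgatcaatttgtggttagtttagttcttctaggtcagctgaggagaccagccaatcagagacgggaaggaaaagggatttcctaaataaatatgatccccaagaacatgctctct
Cxcl10, chr5:92348890-92349139: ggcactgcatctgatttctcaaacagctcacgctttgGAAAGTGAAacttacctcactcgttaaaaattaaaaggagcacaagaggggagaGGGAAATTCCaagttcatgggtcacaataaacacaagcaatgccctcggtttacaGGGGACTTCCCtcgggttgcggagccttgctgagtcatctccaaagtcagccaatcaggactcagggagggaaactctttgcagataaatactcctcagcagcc
Both stretches held an IRF core, starting 175 bases before the start of Cxcl9 and 213 bases before that of Cxcl10. Only Cxcl10 held exact matches to the NF-kB motif as searched, at 159 bases and, as overlapping matches, at 104 and 103 bases before the start. Near matches were not counted, so a lack of matches does not mean that no NF-kB site is present. In windows of 250 bases before to 50 after the start, the IRF core was present in 8.56% of 32851 promoters and the NF-kB motif in 8.46%. Such windows were matched for 4 of the 6 members. Those of Cxcr3 and Cxcr6 held neither of these motifs. A match describes letters in the reference and is no measure of binding in these tumors.

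Cxcl11 was near the detection limit. It lies beside Cxcl10 (chr5:92359544-92365485, minus strand) and is annotated as a polymorphic pseudogene in GENCODE and a transcribed pseudogene in RefSeq, both of which describe the C57BL/6J reference genome. Raw counts were 23, 7 and 8 in Control, 43, 12 and 23 in ASC, 22, 0 and 53 in As300, and 70, 72 and 64 in ASC_As300. The count of 0 in As300 replicate 2 allows a level of up to 0.0613 CPM, taking 3 counts as the limit and counting error alone. ASC_As300 tumors, at 1.27 to 1.42 CPM, lay above all 9 other tumors, of which the highest was As300 replicate 3 at 0.935 CPM. No comparison of Cxcl11 passed the test, ASC_As300 against Control included (log2 fold change 2.34 ± 0.97 SE, edgeR adjusted p = 0.285). Its 95% intervals were wide, -0.93 to 3.22 on the log2 scale for ASC against Control and 0.24 to 4.44 for ASC_As300 against Control. The second lies above 0, with an unadjusted p of 0.0319 (edgeR) that did not pass after adjustment. The data leave room for any change within these intervals.

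The make-up of the CXCR3 ligand pool was compared per kb of exon, since the genes differ in length (union of annotated exons, which for Cxcl10 includes retained introns). The 3 ligands summed to 16.1 ± 3.70 CPM per kb in Control and 16.6 ± 6.21 in As300, and to 92.2 ± 5.56 in ASC and 98.3 ± 12.8 in ASC_As300 (SD, n = 3). Cxcl9 made up 33.6% ± 8.58 of this sum in Control and 27.9% ± 12.5 in As300, against 53.2% ± 6.18 in ASC and 58.5% ± 2.34 in ASC_As300 (SD, n = 3). Cxcl10 made up nearly all of the rest, and Cxcl11 at most 1.08% in any tumor. The length used for Cxcl10, 2252 bases, covers its whole gene, and a shorter spliced length would raise its share in every tumor. The sums and the Cxcl9 shares therefore depend on this length.

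**Figure D2:**
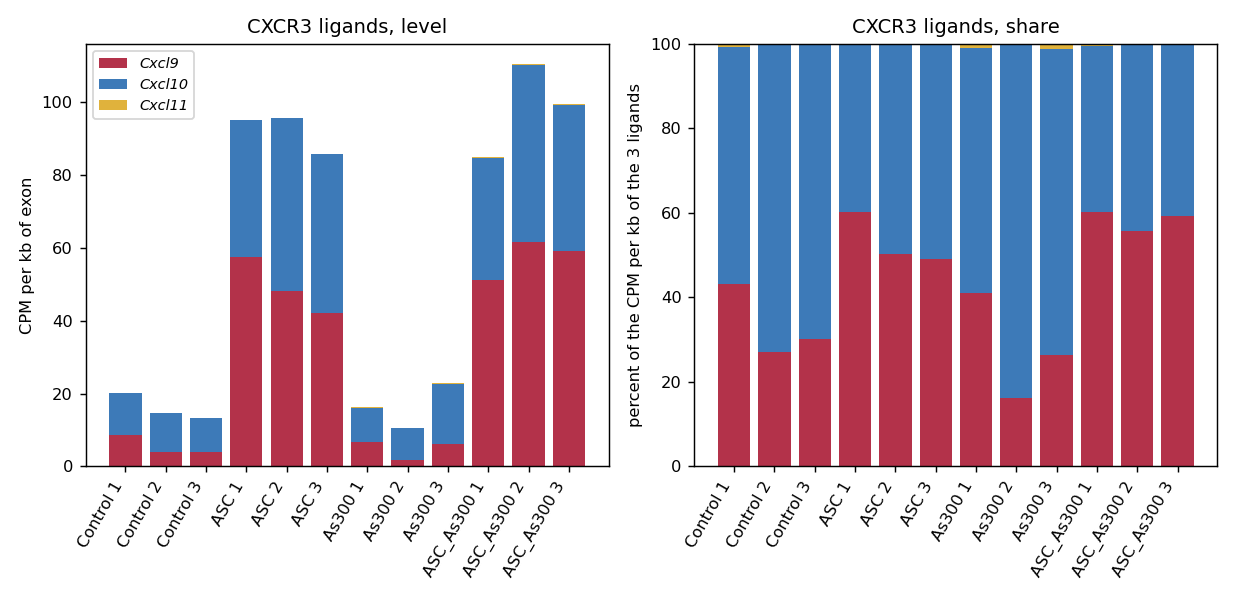
Stacked bars for each of the 12 tumors give Cxcl9, Cxcl10 and Cxcl11 as CPM per kb of exon (left) and as a percent of their sum (right). The length used for Cxcl10 covers its whole gene, and sums and shares depend on it. The sum rose from 10.5 to 22.9 in the tumors without ASC to 85.0 to 110 in those with ASC, and the Cxcl9 share from 16.1% to 43.3% without ASC to 49.0% to 60.3% with ASC.

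The shift toward Cxcl9 was tested as a ratio within each tumor. The log2 ratio of Cxcl9 to Cxcl10 CPM was 0.05, -0.998 and -0.77 in Control and -0.08, -1.95 and -1.03 in As300. It was 1.04, 0.45 and 0.37 in ASC and 1.04, 0.77 and 0.98 in ASC_As300. All 6 tumors with ASC were above all 6 without. Averaged over both iAs levels the ratio was 1.57 log2 units higher with ASC (exact two-sided permutation test within iAs level, p = 0.005, the smallest that its 400 arrangements can give; adjusted p = 0.0125 over 5 ratios). The difference was 1.19 at 0 ppb and 1.95 at 300 ppb iAs.

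Cxcr3, the receptor for these ligands (chrX:101731535-101734269, minus strand), showed no separation of the groups. Control tumors held 2.56, 1.63 and 0.933 CPM, ASC tumors 1.82, 2.79 and 2.38, As300 tumors 1.95, 1.16 and 1.5, and ASC_As300 tumors 2.12, 1.82 and 1.503 CPM. These levels rest on 43 to 124 counts per tumor. The highest Control value was that of replicate 1, the tumor rich in lymph node markers. The log2 fold change was 0.44 in ASC against Control (95% interval -0.36 to 1.25, edgeR adjusted p = 0.613) and 0.09 in ASC_As300 against Control (-0.71 to 0.89, edgeR adjusted p = 0.943). Without Control replicate 1 these became 0.87 (edgeR adjusted p = 0.310) and 0.50 (edgeR adjusted p = 0.572). With all 12 tumors the intervals exclude a gain of the size seen for Cxcl9 and leave room for one of up to 1.25 log2 units.

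Cxcl16, on chromosome 11 (chr11:70453983-70459984, minus strand), had the smallest fold change of the 4 ligands in each comparison of tumors with ASC against tumors without. Its mean level per kb was the highest of the 6 members in Control and As300. That rank over Cxcl10 depends on the length used for Cxcl10, which covers its whole gene. Control tumors held 52.7, 47.6 and 42.3 CPM, and ASC tumors 71.7, 61.1 and 59.1 CPM. As300 tumors held 46.2, 47.3 and 61.2 CPM, and ASC_As300 tumors 70.8, 81.3 and 74.4 CPM. Every tumor with ASC was above every Control tumor, while As300 replicate 3 reached the level of ASC replicates 2 and 3. Cxcl16 was 1.59-fold higher in ASC_As300 than in Control (log2 fold change 0.67 ± 0.12 SE, edgeR adjusted p = 0.0249), which passed the test. That call was lost without Control replicate 2, Control replicate 3, ASC_As300 replicate 2 or ASC_As300 replicate 3, and with the replicate number in the model, where the fold change stayed between 0.60 and 0.68 on the log2 scale and the adjusted p rose to between 0.0510 and 0.0989. In ASC against Control the log2 fold change was 0.43 ± 0.12 SE (edgeR adjusted p = 0.155), and in ASC_As300 against As300 it was 0.55 ± 0.12 SE (edgeR adjusted p = 0.0702). Zmynd15, transcribed from the other strand, overlaps 18.3% of the exon bases of Cxcl16. Whether counting used strand is not stated, and its 312 to 956 counts were below the 1848 to 4119 of Cxcl16 in every tumor. Its mean levels, 12.01 CPM in Control, 11.6 in As300, 13.96 in ASC and 15.9 in ASC_As300, passed no test in any comparison (log2 fold change 0.34 for the ASC effect over both iAs levels, edgeR adjusted p = 0.541), and its part in the level of Cxcl16 was not tested.

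Cxcr6, on chromosome 9 (chr9:123806475-123811760, plus strand), was the receptor that rose. Control tumors held 1.84, 1.94 and 0.586 CPM, and As300 tumors 1.05, 1.02 and 1.45 CPM. ASC tumors held 7.53, 4.85 and 7.78 CPM, and ASC_As300 tumors 6.55, 3.08 and 7.06 CPM. The lowest tumor with ASC, ASC_As300 replicate 2, was still above the highest without ASC, Control replicate 2. Cxcr6 was 4.61-fold higher in ASC than in Control (log2 fold change 2.20 ± 0.44 SE, edgeR adjusted p = 0.0388) and 4.72-fold higher in ASC_As300 than in As300 (2.24 ± 0.44 SE on the log2 scale, edgeR adjusted p = 0.0331). ASC_As300 against Control gave a log2 fold change of 1.93 ± 0.43 SE and missed the threshold (edgeR adjusted p = 0.0614). In bulk RNA, more cells that carry a transcript cannot be told apart from more transcript per cell, for Cxcr6 as for the other 5 genes.

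Single comparisons of Cxcr6 depended on single tumors. The call in ASC against Control held in 4 of the 12 fits that left out a tumor, with log2 fold changes of 1.84 to 2.48 and adjusted p up to 0.121, and without Control replicate 1 it held (log2 fold change 2.41, edgeR adjusted p = 0.0482). ASC_As300 against Control without that tumor gave 2.14 and no call (edgeR adjusted p = 0.0808). For ASC against Control, a fit of the 6 compared tumors alone gave 2.22 with an adjusted p of 0.146 (edgeR). The call in ASC against Control was lost without Control replicate 2 or 3, ASC replicate 2 or 3, As300 replicate 1 or 2, or ASC_As300 replicate 1 or 3. The call in ASC_As300 against As300 held in 5 of 12, with log2 fold changes of 2.03 to 2.51 and adjusted p up to 0.184, and was lost without ASC replicate 1 or 3, any As300 tumor, or ASC_As300 replicate 1 or 3. With all 12 tumors in 1 contrast, the ASC effect over both iAs levels, Cxcr6 rose by 2.22 ± 0.31 SE on the log2 scale (edgeR adjusted p = 0.00156), and this call held in all 12 fits that left out a tumor.

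**Figure D3:**
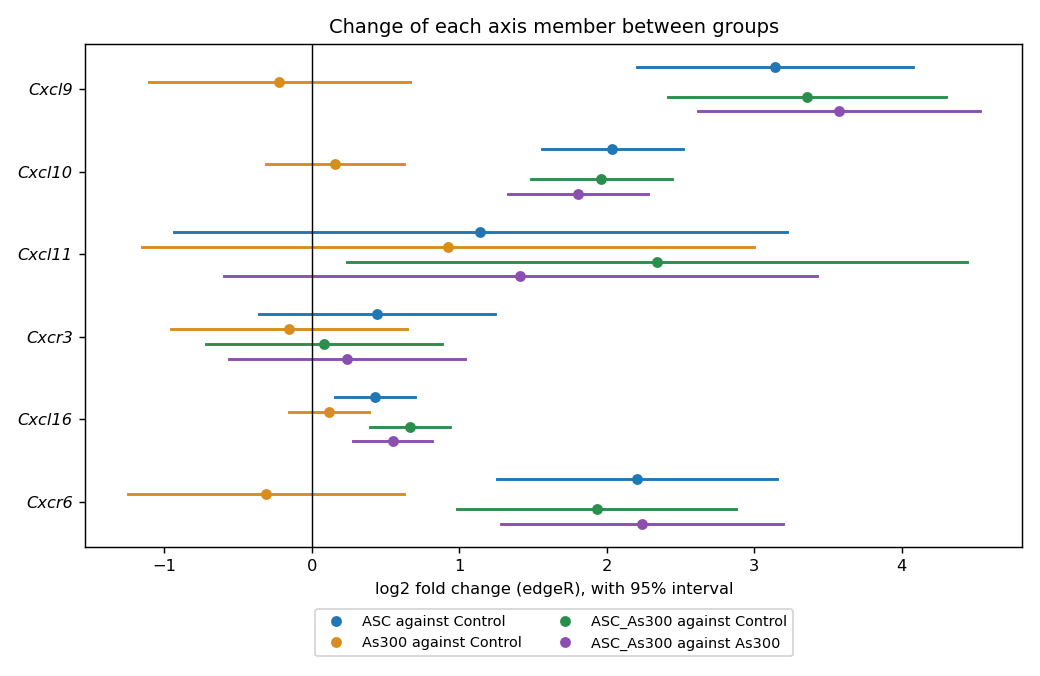
Points give the edgeR log2 fold change (x axis) of each member in 4 comparisons, and lines its 95% interval; the 3 comparisons against Control share the same Control tumors. Cxcl9, Cxcl10 and Cxcr6 lay at 3.14 to 3.58, 1.81 to 2.04 and 1.93 to 2.24 in the 3 comparisons of tumors with ASC against tumors without, and every interval of As300 against Control covers 0.

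Counted over the axis, 3 of 6 members were called higher in ASC than in Control (Cxcl9, Cxcl10, Cxcr6), a call given to 0.706% of all 20818 genes tested. Groups that did not overlap, higher in ASC, were seen for 4 of 6 members (these 3 and Cxcl16) and for 9.96% of all genes. In ASC_As300 against Control, 3 of 6 members were called higher (Cxcl9, Cxcl10, Cxcl16) against a background of 0.783%, and 5 of 6, all except Cxcr3, did not overlap against 13.4%. In ASC_As300 against As300, 3 of 6 were called higher (Cxcl9, Cxcl10, Cxcr6) against 0.793%, and the same 5 of 6 did not overlap against 11.3%. This last comparison and ASC against Control have no tumor in common. Over both iAs levels 3 of 6 were called higher against 1.36% of all genes, and the median log2 fold change of the 6 members was 1.601, beside -0.0042 over all genes. Cxcl16 rose by 0.49 ± 0.09 SE on the log2 scale in that contrast (edgeR adjusted p = 0.00976), under the 1.5-fold required for a call.

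No member was called for iAs alone. In As300 against Control, 0 of 6 members were called by edgeR or DESeq2 and none had an unadjusted p under 0.05, while 0.701% of all genes were called higher and 0.355% lower. Log2 fold changes were -0.22 for Cxcl9 (95% interval -1.10 to 0.67), 0.16 for Cxcl10 (-0.31 to 0.62), 0.12 for Cxcl16 (-0.15 to 0.39) and -0.31 for Cxcr6 (-1.24 to 0.63). Cxcr3 was at -0.15 (-0.96 to 0.65), and Cxcl11, with the widest interval of the 6, at 0.92 (-1.15 to 2.998). Except for that of Cxcl11, these 95% intervals exclude a change as large as the one ASC brought to Cxcl10. Those of Cxcl10 and Cxcl16 were the narrowest, while those of Cxcl9 and Cxcr6 leave room for changes down to -1.10 and -1.24 on the log2 scale. Leaving out Control replicate 1 turned the sign of Cxcl9 to 0.28 and of Cxcr3 to 0.28 on the log2 scale.

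In ASC_As300 against ASC, 0 of 6 members were called, and neither was any other gene in either direction (0%) by edgeR, while 307 genes were higher and 362 lower at an unadjusted p under 0.05, none of them a member. DESeq2 called 4 genes higher and 7 lower there, none a member. The log2 fold changes of the members ran from -0.36 for Cxcr3 to 1.20 for Cxcl11. Cxcl11 was the 1 member whose groups did not overlap, higher with iAs, as for 4.17% of all genes. Neither the iAs effect over both ASC levels nor the interaction of ASC and iAs gave a call for any member or any gene in either direction (0% in each). At an unadjusted p under 0.05 edgeR had 1564 genes higher and 1761 lower for the iAs effect, and 1473 higher and 1363 lower for the interaction, with 0 members among them, while DESeq2 called 30 higher and 84 lower for the iAs effect and 29 higher and 145 lower for the interaction, again without a member. The interaction estimate was 0.44 ± 0.57 SE for Cxcl9, -0.23 ± 0.30 SE for Cxcl10 and 0.04 ± 0.59 SE for Cxcr6 on the log2 scale.

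The order of the members by level per kb differed between tumors with and without ASC. In Control and As300 it ran Cxcl16, Cxcl10, Cxcl9, Cxcr3, Cxcr6 and Cxcl11, with mean levels of 15.7, 10.4, 5.59, 0.987, 0.753 and 0.0688 CPM per kb in Control. In ASC and ASC_As300 it ran Cxcl9, Cxcl10, Cxcl16, Cxcr6, Cxcr3 and Cxcl11, at 49.2, 42.8, 21.2, 3.48, 1.34 and 0.152 CPM per kb in ASC. Cxcl9 and Cxcl10 overlapped in ASC, Cxcr3 and Cxcr6 in Control and As300, and Cxcl16 and Cxcl10 in As300. All other neighbors in these orders did not overlap. The places of Cxcl10 relative to Cxcl9 and Cxcl16 depend on its length of 2252 bases, which covers the whole gene, introns included. A shorter spliced length would raise its level per kb.

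The 2 receptors were set against each other and against Cd3e, the CD3 chain found on T cells. The log2 ratio of Cxcr6 to Cxcr3 CPM ran from -0.87 to 0.24 in the 6 tumors without ASC and from 0.75 to 2.20 in the 6 with ASC. It was 1.84 log2 units higher with ASC (exact two-sided permutation test, p = 0.005, the smallest possible; adjusted p = 0.0125), by 1.79 at 0 ppb and by 1.89 at 300 ppb iAs. The rise of Cxcr6 was therefore larger than any change of Cxcr3 in the same tumors.

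Cd3e itself ran from 0.325 to 7.21 CPM in tumors without ASC, the highest being Control replicate 1, and from 3.87 to 8.20 CPM in tumors with ASC, and it passed no test. Relative to Cd3e, the log2 level of Cxcr3 fell by 1.79 with ASC (exact permutation p = 0.015, adjusted p = 0.025), with ratios of -1.48, 0.61 and 1.41 in Control against -1.11, -0.90 and -1.77 in ASC. Without Control replicate 1 the difference was -2.20 (exact permutation adjusted p = 0.0125), and without ASC replicate 3 it was -1.66 and missed the threshold (exact permutation adjusted p = 0.0583). Cxcr3 itself did not fall, with a log2 fold change of 0.34 for the ASC effect (edgeR adjusted p = 0.714). The lower ratio therefore depends on Cd3e as the denominator, and no other T cell marker was used as one. Relative to Cd3e, Cxcr6 was 0.05 log2 units higher with ASC (exact permutation p = 0.965), and the sign turned to -0.41 without Control replicate 1 (exact permutation adjusted p = 0.140). A difference of Cxcr6 relative to Cd3e was thus neither found nor excluded.

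**Figure D4:**
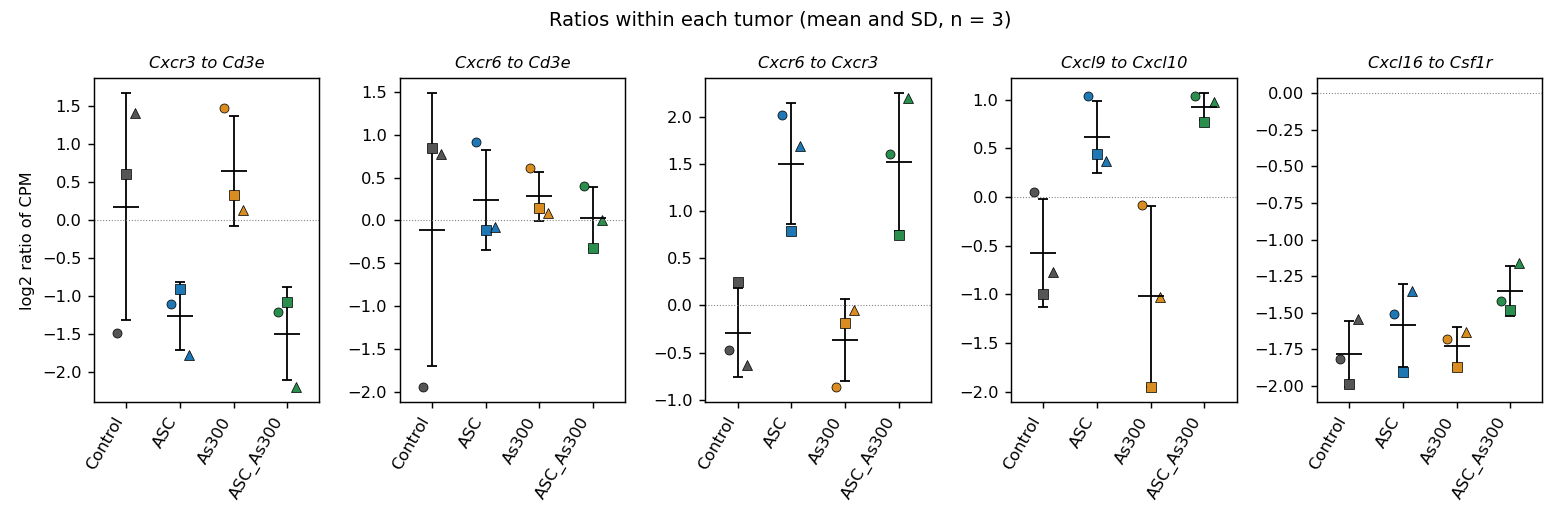
Each panel plots the log2 ratio of CPM of a pair of genes (y axis) in the 12 tumors, with circles, squares and triangles for replicates 1, 2 and 3, a bar for the group mean and the SD (n = 3). The ratios of Cxcr6 to Cxcr3 and of Cxcl9 to Cxcl10 were higher in all 6 tumors with ASC than in the 6 without, and Control replicate 1 was the lowest point of both ratios to Cd3e in its group.

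Cxcl16 was set against Csf1r, the macrophage growth factor receptor, whose groups overlapped at 123 to 228 CPM. The log2 ratio of Cxcl16 to Csf1r was 0.28 higher with ASC (exact two-sided permutation p = 0.04), which did not pass after adjustment over the 5 ratios (adjusted p = 0.05). Without Control replicate 3 or ASC replicate 2 it was 0.34 and 0.36 and passed (exact permutation adjusted p = 0.0375 and 0.0167).

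Relations of ligand and receptor levels were examined within the 6 tumors with ASC and within the 6 without. Each set mixed tumors at 0 and 300 ppb iAs, and pairings were exchanged across both levels. A difference between iAs levels can therefore enter r. In ASC_As300 against ASC the log2 fold changes, neither of them called, were 0.22 for Cxcl9 and -0.36 for Cxcr3. Across the 6 tumors with ASC, log2 CPM of Cxcl9 and Cxcr3 gave Pearson r = -0.79 (exact permutation p = 0.0556, adjusted p = 0.222 over 8 relations) and Spearman rho = -0.89 (exact permutation p = 0.0333, adjusted p = 0.267), with r = -0.96 once the 2 tumors farthest from the Cxcl9 median were left out. Across the 6 without ASC the same pair gave r = 0.72 (exact permutation p = 0.0972, adjusted p = 0.259), rho = 0.71 (exact permutation p = 0.136, adjusted p = 0.272) and r = 0.64 without the 2 farthest. Cxcl16 and Cxcr6 gave r = -0.46 with ASC (exact permutation p = 0.343, adjusted p = 0.457; rho = -0.49, p = 0.356, adjusted p = 0.474) and r = 0.62 without ASC (exact permutation p = 0.189, adjusted p = 0.378; rho = 0.71, p = 0.136, adjusted p = 0.272). Leaving out the 2 tumors farthest from the Cxcl16 median gave r = -0.92 and 0.64. The other 4 relations, of Cxcl10 and of Cxcl11 with Cxcr3, had r of -0.83 to 0.54. None of the 8 relations passed after adjustment, the smallest adjusted p of Pearson's r being 0.222.

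Interferon gamma and its signalling chain, which drives the CXCR3 ligands, was followed through 8 genes. Over both iAs levels 4 of the 8 were called higher with ASC and 0 lower (Irf1, Ifng, Socs1 and Irf8). Ifng ran from 0 (As300 replicate 2, where 0 counts allow up to 0.0613 CPM) to 0.406 CPM in the tumors without ASC and from 1.71 to 3.52 CPM in those with ASC, and rose by 3.63 ± 0.57 SE on the log2 scale (edgeR adjusted p = 0.00385). Irf1, a transcription factor induced by interferon gamma, ran from 50.7 to 68.1 CPM without ASC and from 143 to 188 CPM with ASC (log2 fold change 1.57 ± 0.09 SE, edgeR adjusted p = 1.37e-06). The receptor chains Ifngr1 and Ifngr2 and the kinases Jak1 and Jak2 passed no test. In single comparisons 2 of 8 were called in ASC against Control, 3 in ASC_As300 against Control, 1 in ASC_As300 against As300 and 0 in As300 against Control, where Ifng and Irf1 had log2 fold changes of 0.73 and -0.07.

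Other parts of the pathway were quieter. Of 9 other inducing cytokines and NF-kB genes, 7 were tested and none was called in any of the 8 comparisons, Tnf with a log2 fold change of 1.12 for the ASC effect included (edgeR adjusted p = 0.0765). Among 7 genes that process or scavenge the ligands, Adam10 and Adam17, which release CXCL16, Dpp4, which clips the CXCR3 ligands, and the scavenging receptor Ackr3 passed no test. Mmp9, a protease able to cut CXCR3 ligands, was the 1 gene called there, lower with ASC over both iAs levels (log2 fold change -1.25 ± 0.21 SE, edgeR adjusted p = 0.00519). Its levels were 9.25 to 11.4 CPM with ASC and 13.5 to 44.2 CPM without. None of 7 receptor signalling genes, and none of 12 other CXC and CX3C chemokines and receptors such as Cxcl1, Cxcl12 and Cxcr4, was called in any comparison. For those 12 genes the median log2 fold change of the ASC effect was 0.02, beside 1.601 for the 6 members.

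Some markers of the cells that carry these genes were called higher with ASC, and most were not. The summed T cell markers were 46.0 to 72.4 CPM in tumors with ASC and 13.9 to 20.0 CPM in tumors without, apart from the 88.2 CPM of Control replicate 1. Summed NK cell markers were 17.03 to 21.8 CPM with ASC and 5.45 to 14.04 CPM without, and summed effector and resident lymphocyte markers 111 to 145 against 51.3 to 88.7 CPM. Over both iAs levels 1 of 10 T cell markers was called higher (Cd8a, log2 fold change 2.20 ± 0.49 SE, edgeR adjusted p = 0.0381), 2 of 6 NK cell markers (Klrk1 and Klre1) and 3 of 10 effector markers (Il2rb, Gzmb and Nkg7). Cd4, with a log2 fold change of -0.11 (edgeR adjusted p = 0.938), Tbx21 and Ncr1 were not called. Their part in the levels of Cxcr3, Cxcr6 and the ligands was not tested.

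Myeloid and stromal markers were examined in the same way. Summed macrophage markers overlapped between groups, at 504 to 762 CPM with ASC and 417 to 633 CPM without, and 1 of 8 was called over both iAs levels (Fcgr1, an interferon-responsive Fc receptor, log2 fold change 1.02 ± 0.12 SE, edgeR adjusted p = 0.000292). Summed dendritic cell markers were 40.2 to 56.9 CPM with ASC and 25.6 to 40.3 CPM without, with Itgax and Batf3 called (2 of 7). None of the marker genes of fibroblasts and ASC, endothelium, B cells, adipocytes, muscle or skin was called in the ASC effect.

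The genes most like each member over the 12 tumors were named by Pearson r of log2 CPM, as a description, since all points share the 4 groups. For Cxcl9 they were Iigp1 (r = 0.99), Tgtp1 (0.99) and Tgtp2 (0.99), all interferon-inducible GTPases, of which Tgtp1 and Tgtp2 are near-identical copies whose reads could be split. For Cxcl10 they were Xaf1 (r = 0.98), Ifi35 (0.97) and Parp12 (0.97), which are interferon-induced genes. For Cxcl16 they were Slamf9 (r = 0.97), the integrin Itgax (0.97) and Treml4 (0.94), and for Cxcr6 Klra2 (r = 0.95), Tlr12 (0.95) and the granule gene Nkg7 (0.95). For Cxcl11 the closest were Wdr33 (r = 0.91), Tnfaip3 (0.88) and Gm15821 (0.87), and for Cxcr3 Clec4b1 (r = 0.91), Gm10552 (0.89) and Wnt10b (0.89). Among the members themselves Cxcl9 and Cxcl10 were closest to each other (r = 0.95), Cxcr6 was closest to Cxcl9 (r = 0.89), and Cxcr3 was closest to Cxcr6 (r = 0.59).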

How the data were processed

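RNA sequencing of 12 tumors was analysed from the deposited table of counts. According to the study's methods, the authors trimmed paired-end reads of a stranded poly(A) library with Cutadapt and Perl scripts, aligned them to the mouse genome with HISAT2, and assembled and quantified them with StringTie, gffcompare and Ballgown (the submitters' processing notes list cutadapt 1.1.0, HISAT2 2.0 and StringTie 1.3.4). The step that made the deposited counts, the genome build and the annotation are not given in the sources used here. The counts are whole numbers without normalization. Low counts pile up at multiples of 4 (1137 to 1298 genes at 4 counts per tumor, 380 to 414 at 5). Limits of detection cover counting error only and may therefore be too low. The intervals come from the fitted model and include the spread between tumors. That model does not describe the pile-up, so the intervals may still be too narrow at low counts.

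Symbols, gene positions and exon lengths came from GENCODE M21 (GRCm38), which named 55141 of 55401 genes. Counts were filtered with filterByExpr by group, scaled by TMM and tested with edgeR 4.0.16 (R 4.3.3, limma 3.58.1): a quasi-likelihood F test with 1 mean per group over all 12 tumors. Genes were called at an adjusted p (Benjamini-Hochberg, over all 20818 genes tested) under 0.05 together with a change of at least 1.5-fold. Each SE was derived from the F statistic, as the absolute log2 fold change divided by the square root of F. The 95% intervals of the members used this SE with a t quantile on 12.4 degrees of freedom. CPM values were scaled by TMM, and log2 CPM carried a prior count of 2. The 8 comparisons were the 3 groups against Control, ASC_As300 against As300 and against ASC, the ASC and iAs effects over both levels of the other factor, and their interaction. The 3 comparisons against Control share its tumors. An exact test of 3 against 3 tumors cannot go below p = 0.1, so single genes were tested in the fitted model, and 5 ratios by an exact two-sided permutation test with labels exchanged within each iAs level (scipy). Nothing in the labels used here says more of the replicates than a number. The study's methods say that the flank tumors of a mouse were combined.

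Members, gene lists and tests were chosen with earlier results of these data known. Named genes were all 6 members, Ifng and Irf1, up to 3 called genes per pathway list with the smallest p, set markers of each cell type, and the 3 genes most correlated with each member. Genes outside this rule that are named without a call were chosen after their values were seen. Alternatives were DESeq2 1.42.0, DESeq2 size factors, other filters on low counts, counts divided by 4, no fold minimum, a fit of the 6 tumors compared, the replicate number as a block, and leaving out each tumor. Flow cytometry, RT-qPCR and later time points were not analysed here, and 1 gene of the interferon gamma list and 1 promoter motif that was searched are not reported here.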

Additional observations from a re-analysis of the deposited data

How the results depend on the processing

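Of the 12 calls of members, 214 of 237 alternative fits kept the call, 23 lost it and 0 changed sign. Of the 36 values without a call, 6 of 697 alternative fits gained one and 37 changed sign. The calls of Cxcl9 and Cxcl10 held in every alternative of the 4 comparisons of tumors with ASC against tumors without, and for the ASC effect at both iAs levels combined Cxcr6 kept its call throughout. Cxcl16 in ASC_As300 against As300 gained a call without As300 replicate 3 (log2 fold change 0.67, adjusted p = 0.0211), and its ASC effect of 0.49 passes where no minimum fold is set. The changes of call of Cxcr6 and Cxcl16 in single comparisons followed the adjusted p, with log2 fold changes that stayed close (1.84 to 2.48 for Cxcr6 in ASC against Control). Cxcr6 in ASC_As300 against Control gained a call with at least 10 counts in every tumor, with counts divided by 4, with DESeq2 (adjusted p = 0.000257) and without ASC_As300 replicate 2. The cause of these changes was not tested. At least 10 counts in every tumor left Cxcl11 out of the test.

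Replicate numbers showed no clear pairing of the tumors. Deviations from the group mean correlated between same-numbered tumors at r = -0.124 to 0.172, over 0.1 in 2 of 18 pairs. Between tumors of different number r was -0.222 to 0.246, over 0.1 in 6 of 36 pairs. With 3 tumors per group this check cannot settle whether same-numbered tumors shared a batch. The replicate block left Cxcl9 and Cxcl10 called in the comparisons of ASC, lost Cxcr6 in ASC against Control (log2 fold change 2.16, adjusted p = 0.0686) and in ASC_As300 against As300 (2.20, adjusted p = 0.0679) and Cxcl16 in ASC_As300 against Control (0.67, adjusted p = 0.0510), and kept Cxcr6 in the ASC effect.

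The sign changes were as follows. The iAs effect of Cxcl9, -0.0004 on the log2 scale, became 0.0055 with DESeq2 size factors, 0.0029 without a filter, 0.0125 with at least 10 counts in every tumor, 0.0115 with counts divided by 4, 0.0121 with the replicate block and 0.0078 with DESeq2, and the interaction of Cxcr6 became -0.0073 with at least 10 counts in every tumor. Leaving out 1 tumor gave, for the iAs effect, -0.15 to 0.25 for Cxcl9 and -0.12 to 0.13 for Cxcl10. For As300 against Control it gave -0.52 to 0.28 for Cxcl9, -0.16 to 0.32 for Cxcl10 and -0.42 to 0.28 for Cxcr3. For ASC_As300 against ASC it gave -0.23 to 0.045 for Cxcl10 and -0.48 to 0.011 for Cxcr6, and for ASC_As300 against Control -0.20 to 0.50 for Cxcr3. For the interaction it gave -0.068 to 0.74 for Cxcl9, -0.41 to 0.084 for Cxcl10, -0.50 to 1.11 for Cxcl11, -0.64 to 0.054 for Cxcr3 and -0.26 to 0.38 for Cxcr6. The ASC effect on ratios lay between -0.41 and 0.29 for Cxcr6 to Cd3e, between -2.20 and -1.48 for Cxcr3 to Cd3e and between 0.23 and 0.36 for Cxcl16 to Csf1r. The correlation of Cxcl11 with Cxcr3 in tumors with ASC, r = -0.83, became 0.019 without the 2 tumors farthest from the Cxcl11 median. Over all genes in ASC against Control, edgeR called 147 higher and 3 lower and DESeq2 373 higher and 77 lower, and in As300 against Control edgeR called 146 higher and 74 lower and DESeq2 495 higher and 321 lower. Those As300 calls of edgeR fell to 8 higher and 0 lower without a filter on low counts, to 0 without Control replicate 1, 2 or 3 or ASC_As300 replicate 1 or 3, to 7 or fewer in either direction without As300 replicate 2 or 3 or ASC_As300 replicate 2, and to 19 higher and 9 lower without ASC replicate 2. They were 90 higher and 32 lower without As300 replicate 1, 279 and 115 without ASC replicate 1, and 234 and 165 without ASC replicate 3. Depth limits Cxcl11 most, at 0 to 72 counts per tumor, then Cxcr3 at 43 to 124 and Cxcr6 at 27 to 372.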
